A study of Mus musculus with 5 samples.

Results

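The transcription factors shared by the enteroendocrine lineage were described as a set of 9 genes, namely Neurog3, Neurod1, Insm1, Nkx2-2, Pax4, Pax6, Isl1, Rfx6 and St18. They were chosen by name for their place in endocrine development and not by their level, and all 9 were found among the 22042 genes of the bulk table and among the 27998 genes of the droplet library. Enteroendocrine cells (EECs) are the hormone-producing cells of the gut epithelium, and the data came from C57Bl/6J mice in which such cells were marked by tdTomato, a red fluorescent protein. In the bulk experiment Cck-Cre; R26-LSL-tdTomato mice, 6 in number and aged 6 to 8 weeks, were either fasted overnight (3 mice) or fasted and then given the liquid diet Ensure, here called refed (3 mice). TdTomato+ (CCK+) and tdTomato- (CCK-) epithelial cells of the small intestine were sorted from each mouse, so that 4 groups of 3 libraries shared the Cre and the reporter. In the droplet experiment tdTomato+ cells of 4 untreated Neurog3-Cre; R26-LSL-tdTomato mice aged 6 weeks were pooled in 1 library. Both labels are permanent once Cre has acted, so a CCK+ cell is one that has used the Cck promoter at some time, and a sorted cell of the droplet library is a descendant of a cell that used the Neurog3 promoter, whatever either cell transcribed when it was collected.

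Endocrine cells of the gut arise from crypt progenitors that escape Notch signaling and switch on Neurog3, a basic helix-loop-helix factor that acts briefly and is then shut off. Neurod1, a related factor that is a known target of Neurog3, and Insm1, a zinc finger protein, follow and persist in the hormone-producing cell. The homeodomain factors Nkx2-2, Pax4, Pax6 and Isl1, the winged helix factor Rfx6 and the zinc finger factor St18 then act in the choice and upkeep of hormone types, in the intestine as in the pancreatic islet.

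Basic helix-loop-helix factors such as Neurog3 and Neurod1 bind the E-box, which has the letters CANNTG on both strands. The start-site windows of 4 members are printed because the factors of this cascade are known to act on one another's genes. Such links were not tested in these data. Each runs from 250 bases before to 50 bases after a RefSeq start in GRCm38.p6, 5′ to 3′ along the gene, with E-boxes in capitals. The Neurog3 window is chr10:62132840-62133139 on the plus strand, and those of Neurod1 (chr2:79456587-79456886), Nkx2-2 (chr2:147186353-147186652) and Isl1 (chr13:116309639-116309938) are on the minus strand.
Neurog3: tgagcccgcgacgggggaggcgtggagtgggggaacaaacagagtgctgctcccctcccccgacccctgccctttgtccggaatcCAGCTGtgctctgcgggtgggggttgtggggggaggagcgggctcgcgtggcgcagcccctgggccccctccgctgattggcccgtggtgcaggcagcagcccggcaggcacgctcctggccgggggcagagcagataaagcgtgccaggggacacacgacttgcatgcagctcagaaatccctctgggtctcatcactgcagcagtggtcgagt
Neurod1: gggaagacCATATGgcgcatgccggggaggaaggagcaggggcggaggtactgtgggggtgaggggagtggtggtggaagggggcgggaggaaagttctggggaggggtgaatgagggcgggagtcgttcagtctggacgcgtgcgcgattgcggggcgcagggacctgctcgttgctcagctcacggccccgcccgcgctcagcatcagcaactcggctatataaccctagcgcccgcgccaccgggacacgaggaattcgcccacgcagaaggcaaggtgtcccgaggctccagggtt
Nkx2-2: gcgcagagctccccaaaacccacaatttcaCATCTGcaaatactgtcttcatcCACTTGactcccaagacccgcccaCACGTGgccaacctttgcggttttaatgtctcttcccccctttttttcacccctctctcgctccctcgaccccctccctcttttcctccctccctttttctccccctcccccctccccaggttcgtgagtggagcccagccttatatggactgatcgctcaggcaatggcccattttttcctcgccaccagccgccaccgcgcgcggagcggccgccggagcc
Isl1: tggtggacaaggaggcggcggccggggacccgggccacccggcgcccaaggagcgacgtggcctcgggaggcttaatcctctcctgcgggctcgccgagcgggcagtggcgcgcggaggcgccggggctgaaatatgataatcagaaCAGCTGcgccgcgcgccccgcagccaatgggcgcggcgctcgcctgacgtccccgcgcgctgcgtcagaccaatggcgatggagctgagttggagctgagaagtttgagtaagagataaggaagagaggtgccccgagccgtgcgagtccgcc
The single E-box of the Neurog3 window, CAGCTG, lies 165 bases before the start, and the same letters stand 103 bases before the start of Isl1. The Neurod1 window holds CATATG 242 bases before its start. The Nkx2-2 window holds 3 E-boxes. CATCTG lies 220 bases before the start, CACTTG lies 197 bases before it, and CACGTG lies 173 bases before it. RefSeq windows were at hand for 6 members (7 windows), and 6 of the 7 windows held at least 1 E-box, as did 72.3% of all 32851 windows of the same length. CAGCTG was found in 16.3% of all windows, and 3 or more E-boxes in 17.6%. These matches are letters in a window and not sites of binding.

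The genes lie on 5 chromosomes of the GRCm38 assembly, 4 of them on chromosome 2. Insm1 (chr2:146221921-146225020, plus strand) has 1 exon, and the longest gene is St18 (chr1:6487231-6860940, plus strand). Neurog3 (chr10:62133090-62134763, plus strand) lies within the span of Fam241b on the opposite strand. Neurod1 (chr2:79452521-79456751, minus strand) lies within the span of Cerkl on the same strand, and the antisense genes Pax6os1 and Nkx2-2os overlap Pax6 (chr2:105668900-105697364) and Nkx2-2 (chr2:147177546-147194243). The strand setting of the bulk counting is not given in the sources used here, so reads of a member and of an opposite gene cannot be told apart there. In the droplet cells Pax6os1 had 176 UMIs and Nkx2-2os had 5.

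The bulk libraries summed to between 7061155 and 11371114 normalized counts, gene counts divided by normalization factors, with 16656 to 18855 genes above 0. Their labels were checked through Cck itself, which stood at 14840 to 32590 normalized counts in the 6 CCK+ libraries and at 27.6 to 86.0 in the 6 CCK- libraries. The CCK+ label reached beyond Cck, since Gip (10780 to 34280) and Tph1 (4994 to 21360), the K cell hormone and the serotonin-synthesizing enzyme, were also high there. The CCK- libraries carried the enterocyte profile of the bulk epithelium, with a summed level of 8 enterocyte markers of 332403 to 499163, against 129109 to 334140 in the CCK+ libraries. The CCK+ library of fasted mouse B stood apart. Its sum of 6 general EEC markers was 64332, against 104680 to 235379 in the other 5 CCK+ libraries, and it held the highest enterocyte sum of the 6. The 12 libraries are 1 per mouse and sort. The main fit did not pair the CCK+ and CCK- libraries of a mouse, so its p-values measure the spread between libraries within a group.

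Of the 9 members, 8 were higher in CCK+ than in CCK- cells and Neurog3 did not pass the test, where 33.7% of all genes passed in either direction and 19.6% were higher in CCK+ (limma on log2(normalized count + 1), all 12 libraries, Benjamini-Hochberg adjusted over all genes). For the same 8 members every CCK+ library lay above every CCK- library, which held for 9.74% of genes. The median log2 difference of the 9 members was 6.28, against 0.09 over all genes. In sorted bulk cells, more cells of a type and more RNA per cell cannot be told apart. The split of all calls depended on the scaling, with 4324 genes higher and 3107 lower on the deposited scale, 6511 and 1232 at equal library sums, where the median of all genes moved to 0.35, and 3225 and 4522 after quantile normalization, where it was -0.14. The 8 members were higher under all 3 scalings.

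Neurod1, the bHLH factor downstream of Neurog3, measured 3068, 1433 and 2606 normalized counts in the fasted CCK+ libraries of mice A, B and F and 3047, 3947 and 3678 in the refed ones of mice C, D and E. In the CCK- libraries it measured 37.7, 35.2 and 54.7 in the fasted and 18.9, 37.1 and 38.8 in the refed mice. All CCK+ libraries were high and all CCK- libraries low, with B the lowest of the CCK+ ones, and the log2 difference was 6.28 ± 0.22 (SE, adjusted p = 1.0e-10). Insm1, whose protein represses non-endocrine genes, measured 286, 129 and 197 in fasted and 292, 332 and 354.5 in refed CCK+ cells, and between 0 and 3.33 in the 6 CCK- libraries. The groups did not overlap, and the log2 difference was 6.52 ± 0.37 (adjusted p = 1.0e-08).

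Nkx2-2, a homeodomain factor of endocrine fate choice, measured 311, 148 and 322 in fasted and 394, 758 and 419 in refed CCK+ cells. It lay between 0.437 and 7.69 in CCK- cells. Its log2 difference, 7.06 ± 0.38 (adjusted p = 7.3e-09), was the largest point estimate of the 9, although those of Isl1, Rfx6 and Insm1 lay close to it for errors of this size. Pax4, which favors serotonin and somatostatin fates in development, had the lowest counts of the called members. It measured 43.4, 12.8 and 37.8 in fasted and 30.4, 57.3 and 81.1 in refed CCK+ cells, was listed at 0 in 5 CCK- libraries, and stood at 3.03 in CCK- cells of fasted mouse F. The log2 difference was 4.95 ± 0.49 (adjusted p = 2.9e-06).

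Pax6, a paired homeodomain factor that activates hormone genes such as Gcg and Gip, measured 834, 331 and 578 in fasted and 461, 689 and 559.8 in refed CCK+ cells. In CCK- cells it measured 32.8, 35.3 and 38.3 in fasted and 29.5, 21.1 and 38.8 in refed mice. Pax6 and Neurod1 were the members with at least 18.9 normalized counts in every CCK- library, and the log2 difference of Pax6, 4.07 ± 0.22 (adjusted p = 7.5e-09), was the lowest of the called members. Rfx6, which is needed for endocrine differentiation in gut and pancreas, measured 807, 297 and 558 in fasted and 380.3, 565.5 and 485 in refed CCK+ cells, and 2.68 to 7.999 in CCK- cells. No library of one sort reached the other, and the log2 difference was 6.56 ± 0.29 (adjusted p = 1.0e-09).

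Isl1, a LIM-homeodomain factor of several hormone types, measured 354, 130.0 and 316 in fasted and 175, 214 and 149 in refed CCK+ cells. It was listed at 0 in 3 CCK- libraries and reached 5.12 in the others, and the log2 difference was 6.59 ± 0.52 (adjusted p = 2.9e-07). St18, a member of the Myt1 zinc finger family, measured 673, 144 and 452 in fasted and 442, 493.5 and 373 in refed CCK+ cells. Its CCK- values were the most uneven of the called members, at 2.79, 41.3 and 2.41 in fasted and 30.4, 8.07 and 1.28 in refed mice. The highest of these still lay below the lowest CCK+ value, and the log2 difference was 5.54 ± 0.68 (adjusted p = 2.0e-05). Within the fasted libraries alone the difference of St18 was 5.44 and did not pass (adjusted p = 0.0583).

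Neurog3 was near the floor of the table in both sorts. It measured 6.21, 5.61 and 4.42 in fasted and 2.16, 9.97 and 2.29 in refed CCK+ cells, and 0, 0 and 3.13 in fasted and 0.936, 0 and 8.38 in refed CCK- cells. The sorts overlapped, and the log2 difference of 1.44 ± 0.59 did not pass the test (unadjusted p = 0.0296, adjusted p = 0.0787). It passed at equal library sums (adjusted p = 0.0366), without the CCK- library of fasted mouse F (0.0401) and without that of refed mouse E (0.0155), which held the highest CCK- value, and its adjusted p lay between 0.0674 and 0.564 under the other alternatives. The plot of members by library shows this contrast between Neurog3 and the other 8.

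**Figure D1:**
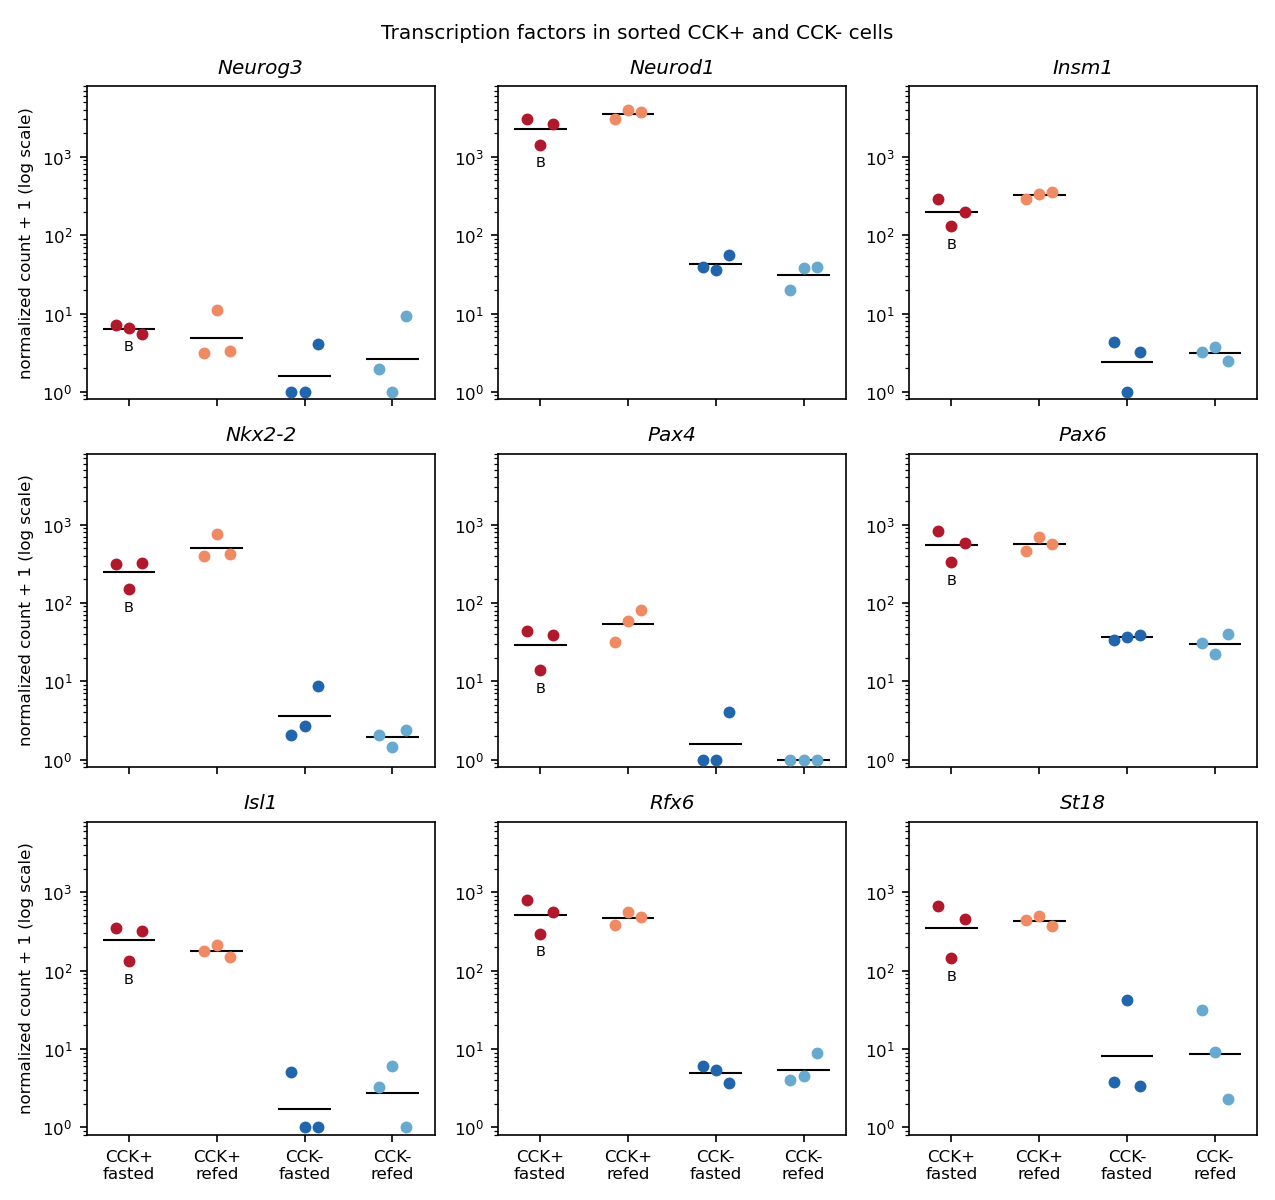
Normalized count + 1 of each member (y axis, log scale) in the 12 sorted libraries, grouped by sort and feeding state (x axis); each point is 1 library, each line the mean of the 3 values on the log scale, and B marks fasted mouse B of the CCK+ sort. The CCK+ libraries lie above the CCK- libraries for 8 members, from 12.8 against at most 3.03 for Pax4 to 1433 against at most 54.7 for Neurod1, whereas the Neurog3 points overlap.

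Most genes of 3 further lists were also higher in CCK+ cells, as were 19.6% of all genes. The lists were made with earlier results of these data known, so their counts are a description and not an independent test. Of 20 other endocrine transcription factors, 14 were higher in CCK+ cells and 1, Onecut2, was lower (-0.52 ± 0.11, adjusted p = 0.00134), with a median log2 difference of 3.02. Among the largest differences were those of Etv1 (8.12 ± 0.39), Myt1 (5.92 ± 0.41) and Fev (5.76 ± 0.33), where Fev is best known from serotonergic neurons. Of 16 Notch and progenitor genes, 10 were higher and the Notch ligand gene Dll1 was lower (-0.91 ± 0.19, adjusted p = 0.00183), with a median of 1.18. Cbfa2t3 (4.51 ± 0.38), Sox4 (4.09 ± 0.25), Mfng (3.49 ± 0.65) and Btbd17 (2.63 ± 0.53) led that list. All 22 endocrine effector genes, which encode granule proteins, prohormone processing enzymes and exocytosis proteins, were higher, with a median of 5.53. Onecut2 and Dll1 were named after their values were seen.

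Markers of other cells moved with the sort as well. Of 10 immune markers, 9 were higher in CCK+ cells, with a median log2 difference of 3.20, and Ptprc measured 636 to 1678 normalized counts in CCK+ and 44.3 to 113 in CCK- libraries. Of 9 enteric neuron markers, a list that holds the endocrine gene Snap25, 5 were higher, with a median log2 difference of 1.89 and a summed level of 1199 to 3852 normalized counts in CCK+ and 44.8 to 92.4 in CCK- libraries. Snap25 measured 908.8 to 3133 of that sum in CCK+ cells. Their part in the members' differences was not tested. Of 8 enterocyte markers, 6 were lower in CCK+ cells.

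Refeeding moved none of the 9 members past the test in either sort. In CCK+ cells 0 members passed, also at an unadjusted p under 0.05, where 561 genes (2.55%) passed after adjustment and 16.9% had such an unadjusted p. In CCK- cells 0 members passed at either level, where 272 genes (1.23%) and 2635 genes did. The 3 refed values lay above the 3 fasted values for Insm1 and Nkx2-2 in CCK+ cells, 2 of 9 members against 10.8% of all genes, and for no member in CCK- cells (8.05% of genes). No member had all refed values below all fasted values in CCK+ cells (8.61% of genes) or in CCK- cells (8.18%).

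In CCK+ cells the log2 changes were 1.02 ± 0.54 for Nkx2-2, 0.89 ± 0.70 for Pax4, 0.74 ± 0.52 for Insm1 and 0.65 ± 0.31 for Neurod1, whose unadjusted p of 0.0513 was the lowest of the set (adjusted p = 0.299). Those of St18 (0.29 ± 0.96), Pax6 (0.05 ± 0.31), Rfx6 (-0.12 ± 0.41), Neurog3 (-0.39 ± 0.84) and Isl1 (-0.46 ± 0.73) were within 1 SE of 0. In CCK- cells the changes were 0.71 ± 0.84 for Neurog3, 0.66 ± 0.73 for Isl1, 0.37 ± 0.52 for Insm1, 0.14 ± 0.41 for Rfx6, 0.08 ± 0.96 for St18, -0.28 ± 0.31 for Pax6, -0.46 ± 0.31 for Neurod1, -0.67 ± 0.70 for Pax4 and -0.92 ± 0.54 for Nkx2-2. The change in CCK+ cells minus that in CCK- cells passed for 0 members, and 1 gene of 22042 (0.00454%) passed in that test. Neurod1 (1.11 ± 0.43) and Nkx2-2 (1.95 ± 0.76) had an unadjusted p under 0.05 there, as did 6.25% of all genes, and an adjusted p of 0.739 each. The difference was 1.56 ± 0.99 for Pax4, 0.37 ± 0.73 for Insm1, 0.33 ± 0.44 for Pax6, 0.21 ± 1.35 for St18, -0.26 ± 0.58 for Rfx6, -1.10 ± 1.19 for Neurog3 and -1.12 ± 1.03 for Isl1. Without mouse B neither Neurod1 nor Nkx2-2 had such a p.

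The mouse B library carried part of the spread. It was the lowest of the 3 fasted CCK+ libraries for all members but Neurog3, and its geometric mean of the 22 effector genes was 434, against 740.2 and 1053 in the other fasted and 936.5 to 1203 in the refed CCK+ libraries. Without both libraries of mouse B the refeeding changes in CCK+ cells were 0.66 for Nkx2-2, 0.45 for Insm1, 0.36 for Pax4 and 0.32 for Neurod1, and they were -0.30 for Pax6, -0.35 for St18, -0.37 for Neurog3, -0.51 for Rfx6 and -0.91 for Isl1. No member passed in that fit either.

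The effector genes tended to be higher in refed CCK+ libraries, with a median log2 change of 0.67. None of the 22 passed the test, and the geometric means of the 2 states overlapped (1053 in fasted mouse A, 936.5 in refed mouse C). The CCK+ libraries were also brought to one level of these genes, a scaling chosen after the data were seen. At that level Neurod1 measured 2540, 2875 and 3069 in fasted and 2837, 2861 and 2785 in refed mice, a log2 change of 0.00 ± 0.31. Rfx6 measured 669, 595 and 657 in fasted and 354, 409.8 and 367 in refed mice. Pax6 measured 691, 665 and 681 in fasted and 429, 499 and 424 in refed mice. All 3 refed values of Rfx6, Pax6 and Isl1 (163, 155 and 112.5, against 293, 261 and 372) lay below all 3 fasted values, mouse B included, as they did for 15.5% of all genes on this scale, and no member had all refed values above (1.97%). The log2 changes were -0.76 ± 0.40 for Rfx6 (adjusted p = 0.273), -0.59 ± 0.30 for Pax6 (0.252) and -1.10 ± 0.70 for Isl1 (0.365), and none passed. On this scale the median of all genes was -0.49, so these 3 members lay 0.11 to 0.61 below it. The changes of the others were 0.38 for Nkx2-2, 0.26 for Pax4, 0.10 for Insm1, -0.35 for St18 and -0.93 for Neurog3.

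Each member was also taken as a percentage of Neurod1 in the same CCK+ library. Pax6 was 27.2, 23.1 and 22.2% of Neurod1 in fasted and 15.1, 17.5 and 15.2% in refed mice, Rfx6 was 26.3, 20.7 and 21.4% against 12.5, 14.3 and 13.2%, and Isl1 was 11.6, 9.08 and 12.1% against 5.76, 5.43 and 4.04%. These ratios of read counts depend on gene length and serve to compare libraries, not genes. The exact two-sided permutation p was 0.1 for each, the smallest that 3 against 3 mice allow. Of the 8 ratios, 3 had all refed values below all fasted values, as did 26.5% of the 15205 genes above 0 in all 6 CCK+ libraries, and none of the 8 had all refed values above (1.72%). The median log2 change of the ratio was -0.63 over these genes, beside -0.60 for Pax6, -0.77 for Rfx6 and -1.11 for Isl1. When the libraries were instead set to the same sum of EEC markers, Pax6 (-1.001 ± 0.29, adjusted p = 0.0198) and Rfx6 (-1.17 ± 0.39, adjusted p = 0.0371) were called lower, among 6035 genes called lower of 22042, and the median of all genes was -0.82. Most of that sum was Chgb, with 123300 of 144448 normalized counts in fasted mouse A and 211100 of 235379 in refed mouse D. Chgb itself was 4020, 3793 and 3420% of Neurod1 in fasted and 5004, 5349 and 5113% in refed mice.

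**Figure D2:**
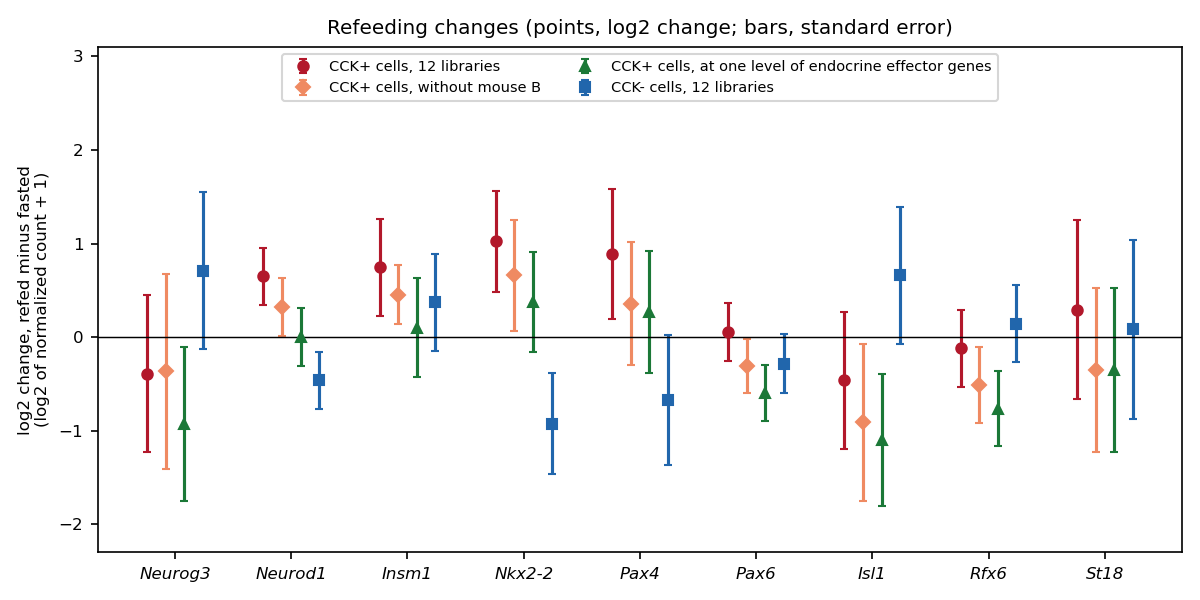
Log2 change on refeeding (y axis, refed minus fasted, log2 of normalized count + 1) of each member (x axis); points are fitted changes and bars their standard errors, for CCK+ cells in all 12 libraries, without mouse B, and with the CCK+ libraries at one level of endocrine effector genes, and for CCK- cells. Nkx2-2 has the highest change in CCK+ cells (1.02), Isl1 the lowest (-0.46), and Pax6, Rfx6, Isl1, St18 and Neurog3 lie below 0 without mouse B.

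The droplet library held 108489965 unique molecular identifiers (UMIs, 1 per captured transcript) in 475960 barcodes with at least 1, and 9451 barcodes with more than 1000 genes and under 10% mitochondrial UMIs were kept as cells, with a median of 5984 UMIs. Cells were grouped by UMIs per 10000, by Cck of at least 500 (1246 cells), otherwise Tph1 of at least 10 (2492), otherwise Gip (135), Ghrl (151) or Sst (35) of at least 500, and the rest (5392). The gates use hormone or enzyme genes and no member. Median UMIs per cell were 6296 in the Cck, 3226 in the Tph1, 6499 in the Gip, 7060.0 in the Ghrl, 5287 in the Sst group and 7472 in the rest, and 524 cells passed more than 1 gate, 268 of them both Cck and Tph1. With 1 library there is no replicate and no test, and the 95% intervals given, exact Poisson for levels and exact binomial for shares, cover counting error only. Doublets were not removed, and the rest carried a summed goblet marker level of 3010 UMIs per 10000 and an EEC marker level of 14.9, against 421 in the Tph1 and 146 in the Cck group. In barcodes with 1 to 100 UMIs, which hold free RNA, the members were not at 0, with Neurod1 at 1.95 UMIs per 10000, and the cells with at least 50 Muc2 UMIs per 10000 in the rest (3564) served as the cell type that should lack the members.

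Members above the rest, in that their intervals did not overlap, numbered 8 of 9 in the Cck group (32.1% of 18413 genes), 8 in the Tph1 group (41.0%), 7 in the Gip group (13.3%), 8 in the Ghrl group (15.1%) and 7 in the Sst group (9.29%). Neurod1, Insm1, Nkx2-2, Pax6, Isl1, Rfx6 and St18 were above the rest in all 5 groups. Isl1 in the Tph1 group overlapped the rest without the cells that passed several gates and with gates of double the size, and Nkx2-2, Rfx6 and St18 in the 35 Sst cells overlapped it after thinning, as Nkx2-2 did in Sst cells with more than 1500 genes. Pax4 was above it in the Cck and Tph1 groups, and Neurog3 in the Ghrl group, where 1 cell decided it. A Cck cell held UMIs of a median of 3 members, a Gip cell of 4 and a cell of the rest of 0. After thinning to 2000 UMIs, 16.2% of Cck, 10.6% of Tph1, 31.1% of Gip and 0.482% of the remaining cells held at least 3 members.

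Neurod1 and Insm1 were highest in the serotonin-producing cells, although for Neurod1 the Tph1 group (9.17, 8.91 to 9.44) and the Cck group (8.87, 8.66 to 9.09) overlapped in cells with more than 1500 genes. Neurod1 stood at 11.01 UMIs per 10000 in the Tph1 group (10.8 to 11.2) and at 8.93 in the Cck group (8.73 to 9.14), and lower in the Ghrl (3.89), Gip (2.40) and Sst (2.04) groups, whose last 2 intervals overlapped. After thinning, 86.2% of Tph1 and 79.4% of Cck cells held a Neurod1 UMI, against 37.0% of Gip cells and 4.88% of Muc2 cells. Insm1 stood at 2.58 in the Tph1 group (2.48 to 2.68), 1.52 in the Gip group (1.29 to 1.79) and 1.25 in the Cck group (1.17 to 1.32), and at 0.463 in the Ghrl group (0.346 to 0.607), close to the free RNA (0.428). Gip and Cck did not differ beyond their intervals for Insm1. In the Muc2 cells Insm1 stood at 0.0565, below all of these levels.

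Isl1 had a different order and, among the gated groups, was lowest in the Tph1 group. It stood at 5.09 in the Ghrl (4.68 to 5.53), 4.98 in the Sst (4.03 to 6.09) and 4.07 in the Gip group (3.68 to 4.502), at 1.34 in the Cck group (1.26 to 1.42) and at 0.128 in the Tph1 group (0.107 to 0.153). An Isl1 UMI was held by 89.4% of Ghrl, 88.6% of Sst, 85.9% of Gip and 48.0% of Cck cells. In the shallower Tph1 group the share was 3.29%, and 3.64% of the remaining cells held 1. At 2000 UMIs per cell the shares were 61.6, 68.6, 50.4, 21.8, 2.18 and 1.17% in the order Ghrl, Sst, Gip, Cck, Tph1 and rest, and 0.842% in Muc2 cells, so that at equal depth the Tph1 share (1.64 to 2.84%) lay above that of the rest (0.899 to 1.49%). Without the cells that passed several gates the Tph1 level of Isl1 was 0.0725 (0.0563 to 0.0920), which overlapped that of the rest (0.0626 to 0.0780). The free RNA held Isl1 at 0.354 (0.276 to 0.446), above the level of the Tph1 group.

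Pax6 and Rfx6 had their highest levels in the Gip cells, the K cells of the gut, although for Pax6 the intervals of the Gip and Sst groups overlapped. Pax6 stood at 1.75 there (1.49 to 2.03), at 1.10 in the Sst (0.681 to 1.68), 0.809 in the Cck (0.749 to 0.873), 0.345 in the Tph1 (0.309 to 0.384) and 0.231 in the Ghrl group (0.151 to 0.339). The Ghrl interval held the free RNA level of 0.204 and lay above the level of the Muc2 cells, 0.0274 (0.0214 to 0.0347). Rfx6 stood at 1.09 in the Gip group (0.890 to 1.32), above the Sst (0.262), Ghrl (0.214), Tph1 (0.184) and Cck (0.101) groups with no overlap of intervals. After thinning, 19.3% of Gip cells held an Rfx6 UMI, against 2.81% of Cck and 3.45% of Tph1 cells. In the Cck group the Rfx6 level (0.0803 to 0.125) was close to that of the free RNA, 0.0946, and above that of the Muc2 cells, 0.0163 (0.0117 to 0.0221).

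Nkx2-2 was the most even member. It stood at 0.739 in the Ghrl (0.588 to 0.916), 0.561 in the Gip (0.420 to 0.734), 0.439 in the Tph1 (0.398 to 0.483) and 0.394 in the Cck group (0.352 to 0.439), where neighbors in this order overlapped, and at 0.210 on 4 UMIs in the Sst group. St18 stood at 0.603 in the Gip (0.457 to 0.781), 0.436 in the Ghrl (0.323 to 0.576) and 0.413 in the Cck group (0.370 to 0.459), and at 0.121 in the Tph1 group (0.0999 to 0.145), where the free RNA was at 0.110. Pax4 was sparse everywhere, with 289 UMIs in all. It stood at 0.183 in the Tph1 group (0.157 to 0.213) and 0.0717 in the Cck group (0.0546 to 0.0925), the latter at the free RNA level of 0.0697, and had 2 UMIs in each of the Gip, Ghrl and Sst groups. In the Muc2 cells both St18 and Pax4 stood at 0.00994 (0.00643 to 0.0147).

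**Figure D3:**
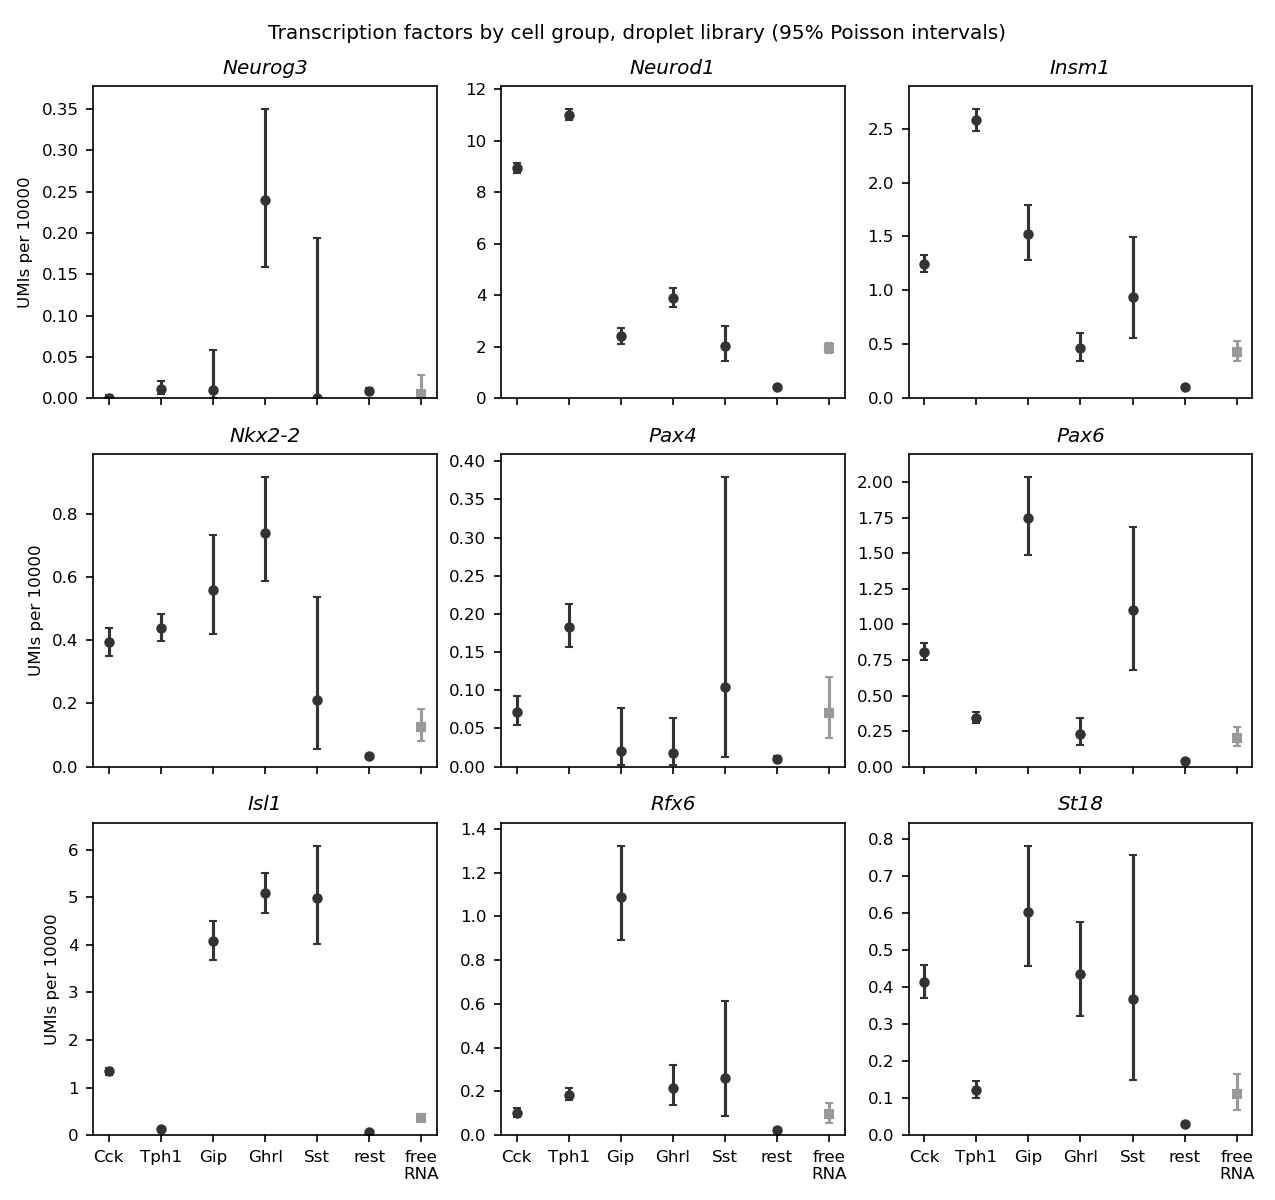
UMIs per 10000 of each member (y axis, linear, scaled per panel) in 6 cell groups of the droplet library and in the pooled free RNA (x axis); points are group levels and bars exact 95% Poisson intervals. Neurod1 and Insm1 peak in the Tph1 group (11.01 and 2.58), Isl1 in the Ghrl, Sst and Gip groups (4.07 to 5.09), and Pax6 and Rfx6 in the Gip group (1.75 and 1.09).

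In the cells close to a gate, Neurod1 had levels between those of the gated group and of the rest, which did not hold for every member. For Neurod1 just over the Cck gate the interval (7.46 to 9.96) held the level of the whole Cck group, 8.93. The 40 cells just under the Cck gate, with 400 to 500 Cck UMIs per 10000, had Neurod1 at 5.93 and Isl1 at 1.13 UMIs per 10000, and the 33 just over it, with 500 to 600, had 8.65 and 1.04. The 235 cells just under the Tph1 gate, with Tph1 at 5 to 10, had Neurod1 at 4.04 and Insm1 at 0.961, and the 217 just over it, with Tph1 at 10 to 15, had 5.02 and 1.54. Both sides of the Tph1 gate thus carried Neurod1 above the remaining cells (0.435). Isl1 was at 0.233 just under and 0.217 just over the Tph1 gate. Both levels were above those of the Tph1 group (0.128) and of the rest (0.06998). Cells just under a gate may have passed another gate, so these windows alone do not show how many endocrine cells lie in the rest.

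Splits by further genes, chosen after the data were seen, showed unevenness within the groups. Tph1 cells with at least 10 Tac1 UMIs per 10000 (357 cells), where Tac1 encodes substance P, had Nkx2-2 at 1.13 (0.955 to 1.32), against 0.325 (0.287 to 0.366) in Tph1 cells with less. Rfx6 (0.431 against 0.143) and St18 (0.2996 against 0.0912) were also higher with Tac1, whereas Pax4 was 0.110 against 0.196 with overlapping intervals and Neurod1 was lower (9.65 against 11.2). After thinning, 17.8% of the Tac1 cells and 6.73% of the others held an Nkx2-2 UMI. Cck cells with at least 20 Gcg or Pyy UMIs per 10000 (339 cells), the peptide genes of L cells, had Isl1 at 1.97 (1.78 to 2.17), those that also passed the Tph1 gate (268) at 0.878 (0.746 to 1.03), and the others (639) at 1.23. Pax6 followed the same order, at 1.03, 0.688 and 0.755, with the last 2 overlapping.

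Among the cells of the rest, those with at least 50 Chgb UMIs per 10000 (296 cells), a granule protein of endocrine cells, carried Neurod1 at 3.96 (3.70 to 4.23), Insm1 at 1.06 and Nkx2-2 at 0.329. The Muc2 cells carried Neurod1 at 0.257 and Isl1 at 0.0438. Cells with at least 5 Dclk1 UMIs per 10000 (173 cells), whose summed level of 6 tuft markers was 87.6 against 2.59 over the rest, had no UMI of Nkx2-2, Pax4, Pax6, Rfx6 or Neurog3, a count of 0 that allows up to 0.0388 UMIs per 10000. Neurod1 was at 0.211 (0.129 to 0.325), and Isl1 and Insm1 had 4 and 2 UMIs. St18 was at 0.326 (0.222 to 0.463) in these cells, above the Muc2 cells (0.00994) and near the level in the Cck group. Their EEC marker sum was 5.94, at the level of the Muc2 cells (5.72).

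**Figure D4:**
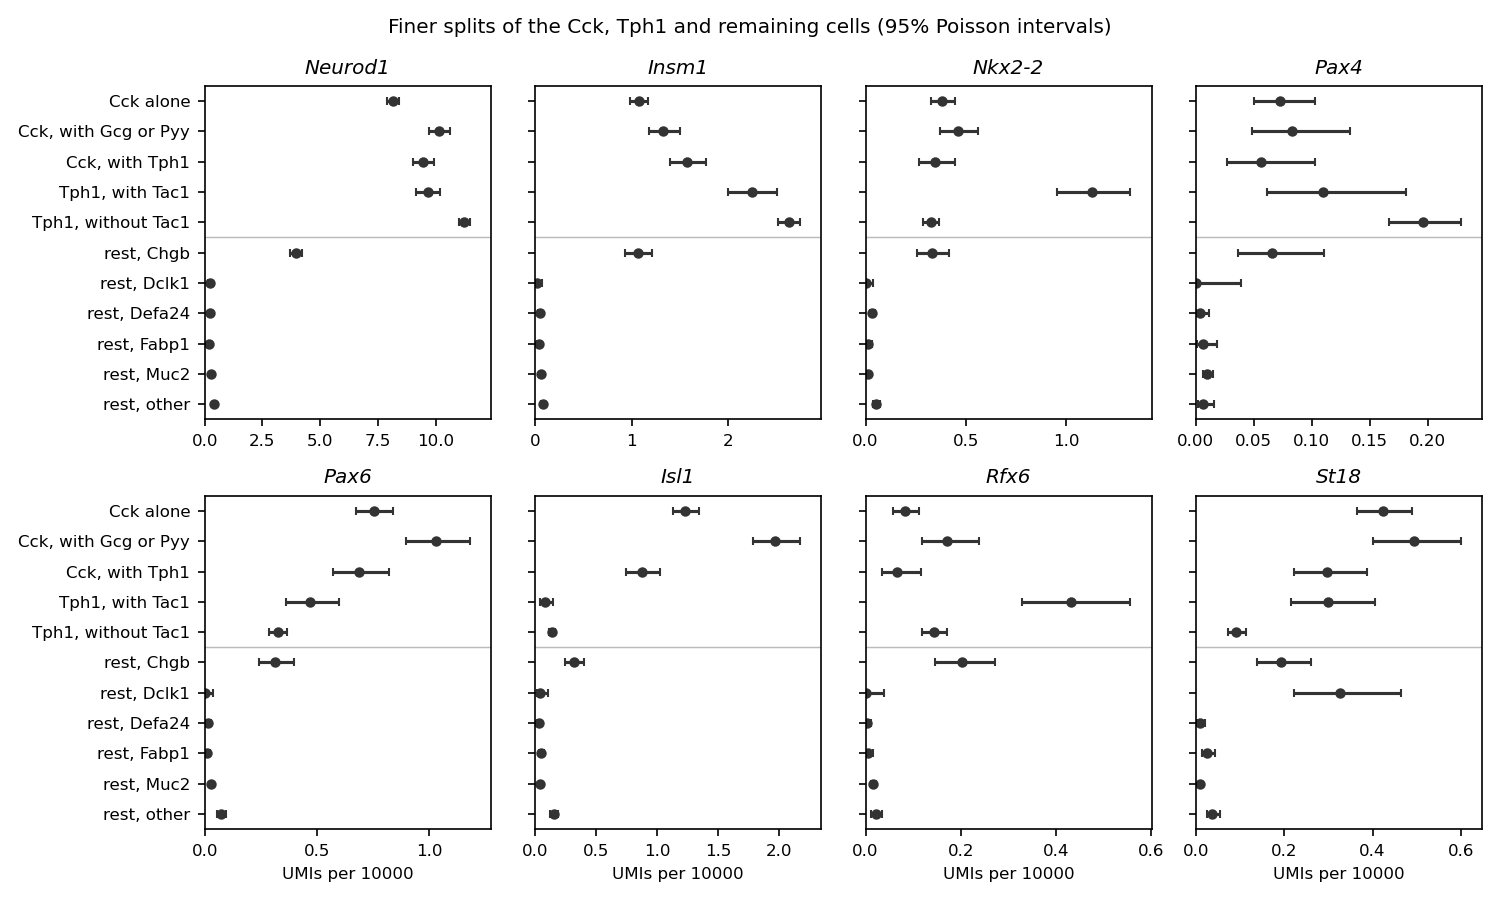
UMIs per 10000 of 8 members (x axis, linear, scaled per panel) in finer splits of the Cck, Tph1 and remaining cells (y axis), with exact 95% Poisson intervals; the gray line separates the gated groups from the rest. Nkx2-2 is higher in Tph1 cells with Tac1 (1.13) than without (0.325), Isl1 is highest in Cck cells with Gcg or Pyy (1.97), and St18 stands at 0.326 and Neurod1 at 0.211 in Dclk1 cells.

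Neurog3, the factor whose promoter drives the label of this library, was found in 27 of 9451 cells with 81 UMIs. There were 15 such cells in the rest, 6 in the Tph1, 5 in the Ghrl and 1 in the Gip group. None of the 1246 Cck cells had one, with an exact binomial upper limit of 0.296%, and none of the 35 Sst cells. The Ghrl level of 0.2403 per 10000 (0.158 to 0.350) rested on 1 cell with 23 of the 27 UMIs, and without it the level was 0.0357 (0.00973 to 0.0914), which overlapped that of the rest (0.00656 to 0.0123). Of the 27 cells, 16 held 1 UMI, and 5 of the 15 in the rest were Muc2 cells with 1 UMI each.

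The 11 cells with at least 2 Neurog3 UMIs carried the early members. Neurod1 and Insm1 were each found in 10 of them, Nkx2-2 in 9, Rfx6 in 5, St18 in 3, and Isl1, Pax6 and Pax4 in 2, 2 and 1. Hes6 and Sox4, genes of endocrine progenitors, were found in 11 and 10, and the proliferation gene Mki67 in 5. In the 9424 cells without a Neurog3 UMI, Neurod1 was found in 51.6% and Insm1 in 26.7%. In the shallower Tph1 group these shares were 95.55 and 56.22%. As a level, Neurod1 was no higher in the 11 cells, at 2.755 UMIs per 10000 against 3.115 in the 9424. Insm1 (2.947 against 0.627) and Nkx2-2 (1.025 against 0.156) were higher in the 11 cells. The 9424 cells include those of the rest, where Insm1 was at 0.103. Similar levels occurred in endocrine groups, with Insm1 at 2.58 in the Tph1 group and Nkx2-2 at 1.13 in Tph1 cells with Tac1. In the Chgb cells of the rest they were lower, at 1.06 and 0.329. The 11 cells were deep, with a median of 13643 UMIs, and 4 of them were Chgb cells of the rest, 3 were Tph1 cells, 1 was a Ghrl cell and 3 were other cells of the rest. Neurog3 reached 12 UMIs in a Chgb cell, beside 5 of Insm1 and 2 of Nkx2-2. In the 16 cells with 1 Neurog3 UMI, Insm1 was found in 3 and Isl1 in 7. The part of depth in these shares was not tested, and 11 cells give wide intervals (58.7 to 99.8% for Neurod1).

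**Figure D5:**
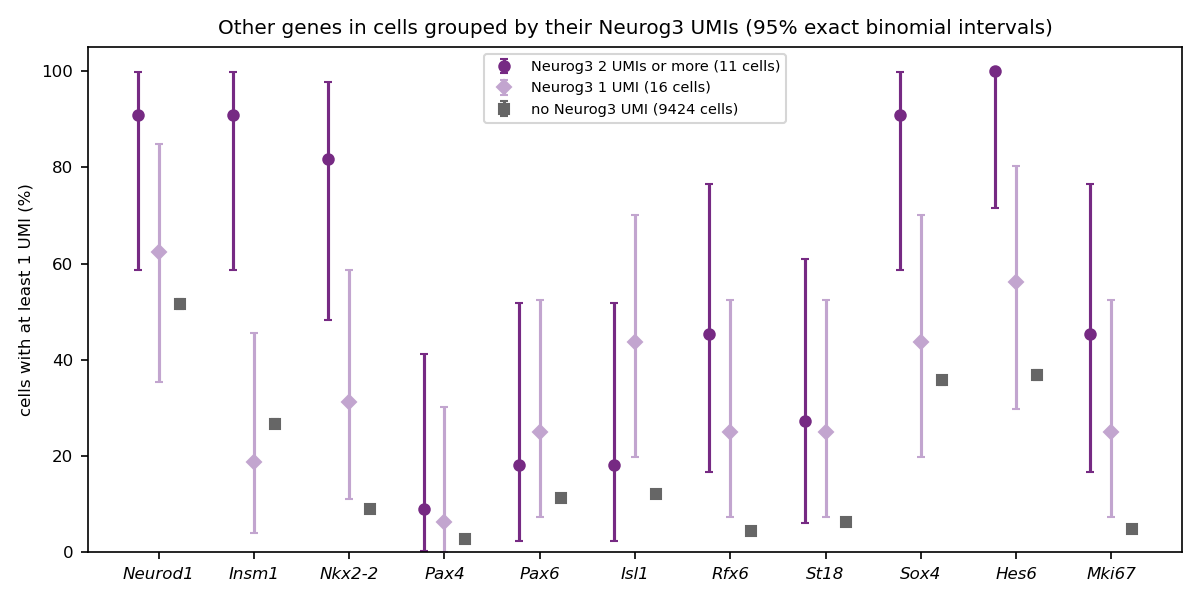
Share of cells with at least 1 UMI (y axis, percent) of 8 members and of Sox4, Hes6 and Mki67 (x axis), in 11 cells with 2 or more Neurog3 UMIs, 16 cells with 1 and 9424 with none; bars are exact 95% binomial intervals. Neurod1, Insm1 and Nkx2-2 were found in 10, 10 and 9 of the 11 cells.

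The patterns over the 6 cell groups sorted the members into few shapes. As a description over 6 groups of 1 library, with log2(UMIs per 10000 + 0.1) of 9767 genes, the Pearson r between members was highest for Isl1 and St18 (0.919), Neurod1 and Insm1 (0.821), Pax6 and St18 (0.811) and Pax6 and Rfx6 (0.782). The gene most like Neurod1 was Olfm1 (0.993), followed by Ptms and Tspyl1, and that most like Insm1 was Ssbp3 (0.999), followed by Klhl9 and Jrkl. Pla2g2d (0.999), Zfyve9 and Bambi were most like Isl1, Faah (0.991), Nup88 and Rnf19a most like Pax6, and Gtpbp10 (0.992), Wdr20 and Rnf215 most like Rfx6. Zfp560 (0.993), Sbsn and Trp53bp1 were most like Nkx2-2, Nav2 (0.997), Tctex1d2 and Rbp4 most like St18, Nr3c1 (0.999), Med29 and Prpf8 most like Pax4, and Irs4 (0.997), Pcp4 and Plb1 most like Neurog3. With 6 points many genes reach such values.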

How the data were processed

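For the droplet library the authors aligned reads to mm10 with Cell Ranger 2.0.1 and collapsed UMIs, and the deposited counts are UMIs per gene and barcode for all barcodes, without normalization. For the bulk libraries, Trim Galore 0.6.7, Salmon 1.6.0 (GRCm39 cDNA) and tximeta gave gene counts per mouse, and the deposited signal values are those counts divided by DESeq2 normalization factors by the authors. They are not whole, and their depth in reads is unknown. Groups came from the cell-type and treatment labels, since all bulk titles name CCK+ cells.

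The log2(normalized count + 1) of all 22042 genes was fitted with limma 3.58.1 (R 4.3.3) as 4 group means, which leaves 8 residual degrees of freedom, and variances were moderated along a trend with the mean. A fold change on this scale understates that of low genes. A gene was called at an adjusted p under 0.05. The fit was checked on simulated data. Droplet values were computed with Python 3.11.15, numpy 2.4.6, scipy 1.17.1 and pandas 2.3.3, with seed 1. Sequences came from RefSeq, and gene positions from the GENCODE annotation of GRCm38, the assembly also called mm10. The letter of a bulk replicate was taken as the mouse: deviations from the group means correlated at 0.0773 to 0.124 between CCK+ and CCK- libraries of the same letter, and at most at -0.0184 between others. Deviations within a group sum to 0, so the negative values largely follow from the positive ones and are no separate evidence.

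All 9 members were named, with values in each of the 4 bulk comparisons. Of other lists, at most the 4 called genes with the largest absolute log2 difference were named, and the 3 genes most like each member. Some genes of those lists are not reported here. The members and lists were chosen with earlier results of these data known. Alternatives were other pseudocounts, a filter at a mean of 10, other scalings, a fit without trend, a mouse block, fewer libraries, and other gates, gene limits and thinning of the droplet cells.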

Additional observations from a re-analysis of the deposited data

How the results depend on the processing

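The count of members called between CCK+ and CCK- cells was 7 to 9 under all alternatives run (8 to 9 when leaving out a library in turn), and that in the 3 refeeding comparisons was 0, except that at the same sum of EEC markers 2 members were called in CCK+ cells. That scaling, chosen after the data were seen, turned the refeeding changes of Neurod1 (-0.40), Insm1 (-0.31), Nkx2-2 (-0.028), Pax4 (-0.13), Pax6 (-1.001) and St18 (-0.76). At the same geometric mean of effector genes Pax6 was at -0.59 and St18 at -0.35, and without mouse B as well at -0.61 and -0.65. Without mouse B alone Pax6 (-0.30) and St18 (-0.35) turned in CCK+ cells and Insm1 (-0.26) in CCK- cells, and the difference between the sorts turned for Pax6 (-0.021) and St18 (-1.62). Rfx6 in CCK+ cells was at 0.10 at equal library sums, and St18 in CCK- cells at -0.024 after quantile normalization. Of these, Pax6 at the same sum of EEC markers was called lower, as was Rfx6, and no other. Leaving out a library in turn, the change in CCK+ cells ranged from -0.30 to 0.36 for Pax6, -0.51 to 0.21 for Rfx6 and -0.35 to 0.76 for St18. In CCK- cells it ranged from -0.21 to 1.41 for Neurog3, -0.26 to 0.79 for Insm1, -0.22 to 0.37 for Rfx6 and -0.85 to 1.27 for St18. The difference between the sorts ranged from -0.050 to 1.01 for Insm1, -0.023 to 0.64 for Pax6, -0.65 to 0.10 for Rfx6 and -0.97 to 1.14 for St18. The cause was not tested.

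Mouse as a replicate block, random (8 members called, correlation 0.0962) or fixed (8), changed no call of a member. Over all genes the 561 calls on refeeding in CCK+ cells became 119 without the trend, 0 with CCK+ libraries alone, 850 after quantile normalization, 127 without mouse B and 103 to 876 leaving out a library in turn (103 without CCK+ refed D, 183 without E, 193 without fasted B). The 272 calls in CCK- cells became 66 without the trend, 63 with CCK- libraries alone, 165 after quantile normalization and 85 without mouse B, and the 7431 calls between the sorts became 2169 with fasted libraries alone. In the droplet library 39 of 270 levels and 103 of 324 shares moved beyond their intervals, 47 of the shares on thinning. Neurog3 and Pax4 rest on few counts, and 1 library and 3 mice a group limit what could be detected.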

Other observations

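Pancreatic endocrine markers were measured beside the members, several of which are also islet factors. Ins1 and Ins2, the insulin genes, were listed at 0 in all bulk libraries but the CCK+ library of refed mouse E, where they stood at 356 and 161 normalized counts. The list also holds Ppy, Iapp, Mafa and Slc2a2, and of its 6 markers 1 was called higher and 1 lower in CCK+ cells. Its sum was 11838 to 16945 in CCK- libraries, 3025 to 6844 in the other CCK+ libraries and 2595 in the CCK+ library of refed mouse E. In each CCK- library 4 or 5 of the 6 markers were listed at 0, both insulin genes among them. The sum there thus rested on very few genes and does not stand for islet cells. The members in that library lay within the range of the other refed CCK+ libraries for Neurod1 (3678), Nkx2-2 (419), Neurog3 (2.29), Pax6 (559.8) and Rfx6 (485), above it for Insm1 (354.5) and Pax4 (81.1), and below it for Isl1 (149) and St18 (373). This was chosen after the values were seen.

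The 9 members summed to 6384, 2630 and 5071 normalized counts in the fasted CCK+ libraries of mice A, B and F and to 5224, 7066 and 6101 in the refed ones of mice C, D and E, against 78.1 to 118 in the CCK- libraries. Per 1000 normalized counts of the 6 EEC markers, Neurod1 was at 21.2, 22.3 and 24.9 in fasted and 17.6, 16.8 and 17.2 in refed CCK+ cells, and Insm1 at 1.98, 2.00 and 1.88 in fasted and 1.69, 1.41 and 1.66 in refed cells. Most of these marker counts were Chgb, so the values are close to ratios to Chgb.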
